A study of Mus musculus with 21 samples.

Results

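Bone marrow-derived macrophages that had been grown in fatty acid plus TAK242 and were then given lipopolysaccharide (LPS) were compared with untreated macrophages, 3 libraries against 3. These 6 of the 21 RNA-seq libraries of the series were taken by their labels, and no measured value was used to choose them. All libraries used here came from C57Bl6/J mice on standard chow, with a donor age of 24 weeks and a diet period of 24 weeks given in the labels. Marrow cells were grown into macrophages with medium conditioned by L929 cells, a usual source of macrophage growth factor. The untreated group received none of the agents. The compared group was kept in 10 mM fatty acid (1 part palmitic to 3 parts oleic acid) together with 200 nM TAK242 during the opening 4 days. Both agents were then washed off, and LPS from E. coli was added on day 7 at 100 ng/ml and left for 24 h. Another 3 libraries received LPS alone, and 3 received fatty acid without TAK242 and then LPS; they serve here to show how large the LPS response was without the inhibitor.

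LPS, a lipid of the outer membrane of Gram-negative bacteria, is carried by LBP and CD14 to the receptor TLR4 with its partner MD-2. From the cell surface the adaptors TIRAP and MyD88 lead to NF-kB and to genes such as Tnf, Il1b and the neutrophil-attracting chemokines. From endosomes the adaptors TRAM and TRIF lead to IRF3, interferon-β and, through STAT factors, to the interferon-stimulated genes. TAK242 (resatorvid) is a small molecule that binds the intracellular part of TLR4 and keeps it from engaging its adaptors. The comparison addresses how strong the LPS response was after early exposure to this inhibitor. Per the labels TAK242 was not in the medium when LPS was added. No library had fatty acid without LPS, or TAK242 without fatty acid, so the contrast with untreated cells holds all 3 agents together. What each agent adds to it cannot be told apart.

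The LPS response stayed large. Of 10476 genes tested, 6082 (58.1%) changed against untreated cells at an adjusted p under 0.05, 1482 higher (14.1%) and 4600 lower (43.9%). At least 2-fold changes were called in 639 genes that were higher (6.1%) and in 1234 that were lower (11.8%). LPS alone against the same untreated libraries gave 6463 calls (61.7%), 1444 higher (13.8%) and 5019 lower (47.9%). Fatty acid and then LPS gave 6295 calls (60.1%), 1591 higher (15.2%) and 4704 lower (44.9%). These 3 comparisons share their untreated libraries and are set side by side only. Values are the authors' deposited, normalised expression values, whose unit is not named in the sources used here, so levels are compared between libraries and never between genes. Changes are differences in log2(value + 1) from limma with Benjamini-Hochberg adjusted p-values, and this scale understates the change of genes with low values. The median change over all genes was -0.25 in the comparison with untreated cells. When libraries were rescaled by their median ratio, 5503 genes were called, 2706 higher and 2797 lower, so the share of calls that were higher moved from 24.4% to 49.2%. The same scaling gave 2847 higher and 2822 lower after LPS alone, and 2858 higher and 3052 lower after fatty acid and then LPS. Leaving out 1 of the 6 libraries at a time, 4956 of the 6082 calls held every time.

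Library sums lay between 321532 and 386023, from 9226 to 10145 genes reached a value of 1, and the gene with the highest value made up 3.41% to 13.95% of the sum. Sequencing depth is not given in these values. LPS replicate 1 stood apart from replicates 2 and 3 of LPS alone, with higher neutrophil chemokines and cytokines. It was also lower in interferon-stimulated genes, with a median log2 level of 4.02, beside 4.75 and 5.08 in replicates 2 and 3. The medians given below for LPS alone include this library. It does not enter the contrast with untreated cells except through the shared estimate of spread. All 8 macrophage markers passed the filter, 5 rose and 1 fell (median 0.89, from -0.99 for Cd68 to 4.09 for Fcgr1), with summed values of 9667 to 10788 in untreated and 9352 to 10780 in fatty acid, TAK242 and LPS libraries. None of 7 dendritic cell, 7 T and NK cell and 6 erythroid and megakaryocyte markers passed the filter, and Siglech, Cd3d, Cd8a and Ncr1 were at 0 in both groups. Of 8 stromal markers 5 passed, and 3 of these rose, with summed values of 7.86 to 15.9 in untreated and 20.4 to 24.7 in fatty acid, TAK242 and LPS libraries. Of 9 neutrophil markers 3 passed and none was called, with sums of 67.1 to 73.6 against 41.3 to 53.0. Of 5 B cell markers only Cd79b passed and it fell, with list sums of 1.99 to 2.54 against 0.579 to 0.933. The part of stromal, neutrophil or B cells in the results was not tested. In bulk libraries such as these, fewer cells of a type and less RNA per cell cannot be told apart.

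The plot of 12 genes by library shows the size of the response at both ends.

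**Figure D1:**
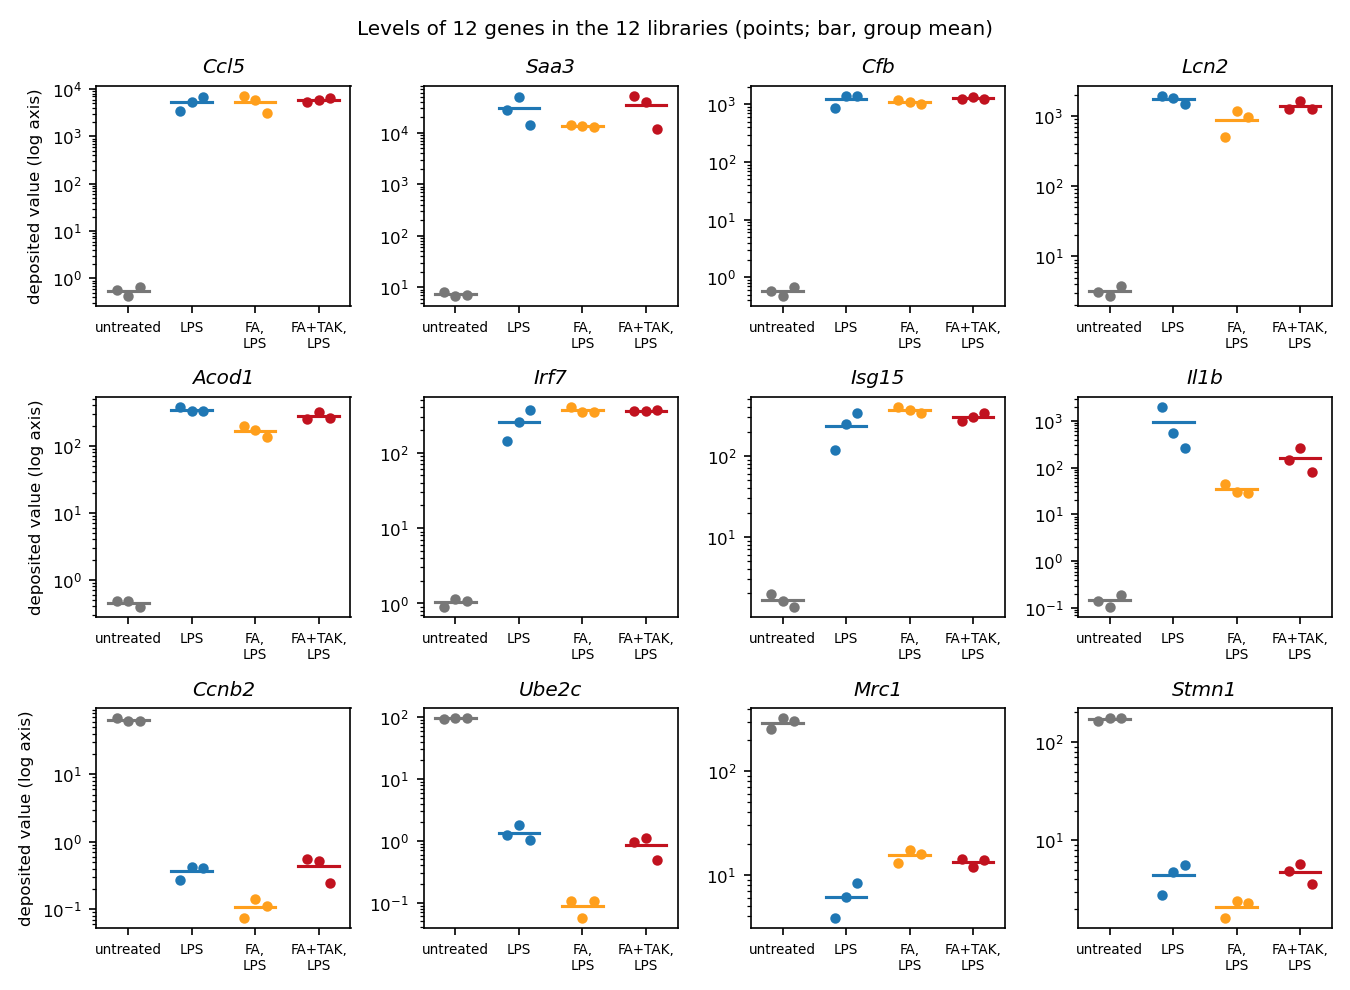
Deposited value (log axis) of 12 genes in 3 libraries of each of 4 groups; points are libraries and bars are group means. Ccl5, Saa3, Cfb, Lcn2, Acod1, Irf7, Isg15 and Il1b sit far above untreated cells in all 3 groups given LPS, while Ccnb2, Ube2c, Mrc1 and Stmn1 sit far below. Il1b ranges from 28.2 to 1987 among libraries given LPS.

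The receptor and its adaptors changed in both directions. Of 19 genes of the LPS receptor complex and its adaptors, 17 passed the filter, 5 rose, 5 fell and 7 were not called, with a median of 0.25. For this and each later list in the comparison with untreated cells, the unscaled background is 14.1% higher and 43.9% lower over all genes tested, with a median of -0.25. For counts after median-ratio scaling the background is 2706 higher and 2797 lower of all 10476 genes. On this list 8 rose and 2 fell after scaling. Tlr4 (chr4:66827584-66930284 on mm10), the receptor gene, had values of 4.27, 4.31 and 4.63 in untreated libraries and 2.51, 2.53 and 2.39 after fatty acid, TAK242 and LPS. The groups did not overlap, and Tlr4 fell by 0.64 (adjusted p = 3.95e-05). Ly96, which encodes MD-2, rose from 23.2 ± 1.8 to 38.1 ± 2.97 (mean ± SD, n = 3 as in all such values), a change of 0.69.

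Cd14, the LPS co-receptor gene, rose by 2.21 (SE 0.31), from 7.27, 7.79 and 7.21 to 38.3, 52.7 and 26.9. Myd88, the adaptor gene, rose by 1.28, and the adaptor kinase genes Irak1 and Map3k7 fell by 0.40 and 0.36. These 2 falls lie near the median change of -0.25 over all genes, and scaling lowered the count of falls on this list from 5 to 2. The largest rise on this list was in Irak3, an inhibitor of IRAK signalling, which went from 6.16 ± 0.735 to 39.9 ± 5.45 (2.51). Exons of Irak3 overlap Tmbim4 and those of Myd88 overlap Acaa1a, and whether reads were counted by strand is not given in the sources used here. Lbp, whose product delivers LPS, fell by 1.25. Ticam1, which encodes TRIF, did not pass the filter, with values of 0.225 to 0.435 after the treatment and 0.255 to 0.3 in untreated cells.

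NF-kB subunits and their feedback inhibitors rose in most cases. Of 22 genes 21 passed, 14 rose, 2 fell and 5 were not called (median 0.76), against 15 higher and 1 lower after LPS alone (median 1.36). After scaling 17 rose and 1 fell. Nfkbia, which encodes the inhibitor IκBα, rose by 2.35 (SE 0.13), from 23 ± 1.43 to 122.2 ± 17.3, and after LPS alone it reached 173.7 ± 14.1. Nfkbiz, which encodes the nuclear cofactor IκBζ, rose by 2.57 and Tnfaip3, the gene of the ubiquitin-editing inhibitor A20, rose by 1.66. The subunit genes Nfkb2 and Relb rose by 1.55 and 1.13, and Rela was at 10.2 in untreated and 11.7 in treated cells on average, which was not called. Atf3, a repressor of inflammatory genes, fell by 0.73.

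Interferon regulatory and STAT factors followed. Of 15 genes 14 passed, 8 rose and 2 fell (median 1.10), and after scaling 10 rose and 1 fell. Irf7, which amplifies interferon production, had values of 0.889, 1.13 and 1.09 in untreated libraries and 352.8, 355.0 and 373.3 after fatty acid, TAK242 and LPS. Libraries given LPS alone had 144.1, 254.2 and 366.6, so 2 of the 3 treated libraries lay below the highest of these and 1 above it. Irf7 rose by 7.47 (SE 0.25, adjusted p = 2.24e-09). Stat2, a factor that carries the type I interferon signal to the nucleus, rose by 3.29, and Irf9, its partner, rose by 1.22. Irf3 fell by 0.33, near the median change of -0.25 over all genes. Exons of Irf7 overlap Phrf1.

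All 44 interferon-stimulated genes passed the filter and rose, with a median change of 3.70, where 43 rose after LPS alone (median 3.09) and 44 after fatty acid and then LPS (median 4.18). Over all genes tested, 14.1% were higher and the median was below 0. The call held for all 44 whichever of the 6 libraries was left out. Ifi205, of the interferon-inducible p200 family, rose the most on the list, from 0.321, 0.294 and 0.232 to 226.5, 229.5 and 303.5 (7.62, SE 0.27). Isg15, a ubiquitin-like modifier, rose from 1.95, 1.63 and 1.35 to 270.8, 301.7 and 336.5 (6.85, SE 0.30). Every treated library lay more than 100 times above every untreated library in both genes.

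Among the antiviral effectors, Zbp1, a sensor of Z-form nucleic acid, rose by 6.12, and Usp18, which removes ISG15 from proteins, rose by 6.36. Rsad2, the gene of viperin, rose by 5.51, Oasl1 by 5.85 and Mx1, a dynamin-like antiviral GTPase, by 5.85. The guanylate-binding protein gene Gbp2 rose by 5.41, from a mean of 2.60 to 153.1. Iigp1 was listed at 0 in all untreated libraries and had a mean of 1.85 after treatment. Ifnb1, the gene of interferon-β itself, was listed at 0 in all 12 libraries; stimulated cells were taken 24 h after LPS.

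Promoter sequences are shown for 3 genes of the LPS response and, further on, for 2 genes that fell, to show examples of genes with large changes. They are the 250 bases before the annotated start, from RefSeq on GRCm38.p6, written 5′ to 3′ in the direction of the gene, and capitals mark every match to 4 motifs on either strand. The motifs are an NF-kB motif (GGG, any 2 bases, TTTCC), the interferon response element (GAAA, any 2 bases, GAAA), the cell cycle homology region TTTGAA and the CCAAT box, and overlapping matches were all marked.
Cxcl10 promoter, chr5:92348890-92349139, minus strand: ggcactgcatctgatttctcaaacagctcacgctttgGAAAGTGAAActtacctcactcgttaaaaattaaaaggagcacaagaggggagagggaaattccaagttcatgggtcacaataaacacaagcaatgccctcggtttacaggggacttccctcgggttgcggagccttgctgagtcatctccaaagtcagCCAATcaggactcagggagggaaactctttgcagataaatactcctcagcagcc
Ifi205 promoter, chr1:174031756-174032005, minus strand: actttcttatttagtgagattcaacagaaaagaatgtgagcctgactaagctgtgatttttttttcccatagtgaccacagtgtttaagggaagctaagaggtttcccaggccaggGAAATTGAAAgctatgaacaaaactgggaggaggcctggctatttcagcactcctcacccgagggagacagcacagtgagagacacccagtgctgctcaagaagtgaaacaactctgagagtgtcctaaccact
Acod1 promoter, chr14:103046762-103047011, plus strand: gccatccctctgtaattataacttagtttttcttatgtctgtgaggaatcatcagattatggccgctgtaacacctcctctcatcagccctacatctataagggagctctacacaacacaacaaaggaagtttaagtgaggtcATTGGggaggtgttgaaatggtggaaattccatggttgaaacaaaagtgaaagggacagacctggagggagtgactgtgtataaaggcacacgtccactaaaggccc
In Cxcl10 the capitals mark 1 interferon response element and 1 CCAAT box, in Ifi205 an interferon response element, and in Acod1 a CCAAT box read on the opposite strand. Of the 44 interferon-stimulated genes 34 had a promoter in the table, and 20 of these (58.8%) held the interferon response element, against 3.04% of all 27025 promoters of the same length. The NF-kB motif was in 4 of 15 chemokine promoters (26.7%) and 1.4% of all. A match describes these letters only. Other spellings of the NF-kB motif and of the other motifs were not searched, so lower case does not mean that a site is absent.

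Chemokine genes responded unevenly. Of 22 genes 18 passed, 12 rose and 2 fell (median 2.5), against 16 higher and 2 lower after LPS alone (median 2.52) and 9 higher and 3 lower after fatty acid and then LPS (median 1.46). Ccl5 (chr11:83525778-83530518), which attracts T cells and monocytes, showed the largest rise of the genes named by rule. Its values were 0.557, 0.419 and 0.645 in untreated libraries and 5267, 5908 and 6517 after fatty acid, TAK242 and LPS. The change was 11.90 (SE 0.29, adjusted p = 2.70e-10), beside 11.68 after LPS alone and 11.69 after fatty acid and then LPS.

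Cxcl10, a chemokine induced by interferon, rose by 6.43 (SE 0.38), from 0.0162, 0.181 and 0.102 to 78.3, 87.5 and 120.1. The monocyte chemokine genes Ccl2, Ccl7 and Ccl12 rose by 3.02, 3.19 and 3.65. Cxcl9 and Cxcl11, also induced by interferon, were listed at 0 in untreated cells and had means of 2.60 and 3.79 after treatment. Ccl6 fell by 2.03, from a mean of 256.3 to 61.8, and Cxcl14 fell by 0.64.

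Values of the chemokine genes Cxcl1, Cxcl2 and Cxcl3, whose products draw neutrophils, lay below those after LPS alone in every library, and the differences were not called (adjusted p = 0.0885, 0.0661 and 0.0751). They were -3.00, -3.25 and -3.39, and -1.40, -1.81 and -1.79 without LPS replicate 1. Cxcl3 (chr5:90786103-90789600) had values of 0.136, 0.0216 and 0.150 in untreated libraries, 16.0, 24.6 and 8.16 after fatty acid, TAK242 and LPS, and 1531, 101.8 and 28.2 after LPS alone. Each treated library was above each untreated library and below each library given LPS alone. Cxcl3 rose by 3.85 against untreated cells (SE 1.07, adjusted p = 0.00947), beside 7.24 after LPS alone. After fatty acid and then LPS without TAK242, Cxcl3 was at 1.11, 1.13 and 1.02, and Cxcl2 at 4.75, 3.35 and 2.49. Cxcl2 rose by 3.04 (adjusted p = 0.0187), from 2.02, 2.01 and 1.33 to 24.2, 33.7 and 12.4. This call was lost without untreated replicate 3 (2.91, adjusted p = 0.0517), without replicate 1 of the treated group (2.96, adjusted p = 0.0501) and without its replicate 2 (2.73, adjusted p = 0.0610).

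Cxcl1 had values of 0.629, 1.10 and 0.207 after the treatment and at most 0.0360 in untreated libraries, and was not called (0.66, adjusted p = 0.597). Ccl3, a chemokine of monocytes and neutrophils, was at 83.8, 139.1 and 76.1 against 53.8, 55.1 and 48.3 in untreated cells. The groups did not overlap, yet the change of 0.86 was not called (adjusted p = 0.191). Without LPS replicate 1 in the fit, whose spread the groups share, the adjusted p was 0.0120. Libraries given LPS alone had 1434, 373.2 and 203.8 for Ccl3, and those given fatty acid and then LPS had 72.4, 61.4 and 59.7.

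Most inflammatory cytokine genes measured rose, several to lower values than after LPS alone. Of 21 genes 14 passed, 11 rose and none fell (median 1.58), and 12 rose after LPS alone (median 2.92). With 1 library left out, 8 or 9 rose. Il1b (chr2:129364570-129371139), which encodes the fever-inducing interleukin-1β, had values of 0.142, 0.103 and 0.193 in untreated libraries and 145.4, 260.4 and 79.9 after fatty acid, TAK242 and LPS. It reached 1987, 543.2 and 262.1 after LPS alone and 45.1, 30.7 and 28.2 after fatty acid and then LPS. No treated library overlapped any of the other groups, and Il1b rose by 6.99 against untreated cells (SE 0.62, adjusted p = 3.16e-06).

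Tnf (chr17:35199381-35202007), an early NF-kB target, rose by 2.08 (SE 0.39, adjusted p = 0.000826), from 3.40, 3.42 and 2.37 to 13.8, 21.3 and 14.1. After LPS alone it was at 101.1, 39.0 and 27.3, all above the libraries that had been given TAK242. After fatty acid and then LPS without TAK242 it was at 17.9, 12.9 and 11.5, which overlapped the libraries with TAK242. Il1a, the related interleukin-1α gene, rose by 4.09, and Il1rn, the gene of the interleukin-1 receptor antagonist, rose by 4.31. Il10, an anti-inflammatory cytokine gene, rose by 2.13, from 0.524 ± 0.124 to 5.68 ± 0.842.

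Il12b, a subunit of interleukin-12 and interleukin-23, was at 0, 0.0225 and 0.0181 in untreated libraries and 1.79, 2.53 and 1.64 in treated ones, a rise of 1.55. Il6 was at 1.82, 4.36 and 0.951 against 0, 0.0180 and 0, and rose by 1.62 (adjusted p = 0.0383). That call was lost without any of untreated replicates 1, 2 and 3 (adjusted p = 0.0806, 0.0787 and 0.0795) and without treated replicates 1 and 2 (0.0701 and 0.137). Csf3, the gene of the neutrophil growth factor G-CSF, was not called (0.73, adjusted p = 0.292), with 0.636, 1.19 and 0.3 against 0.0187, 0 and 0. The heat map of inflammatory genes shows these differences among libraries.

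**Figure D2:**
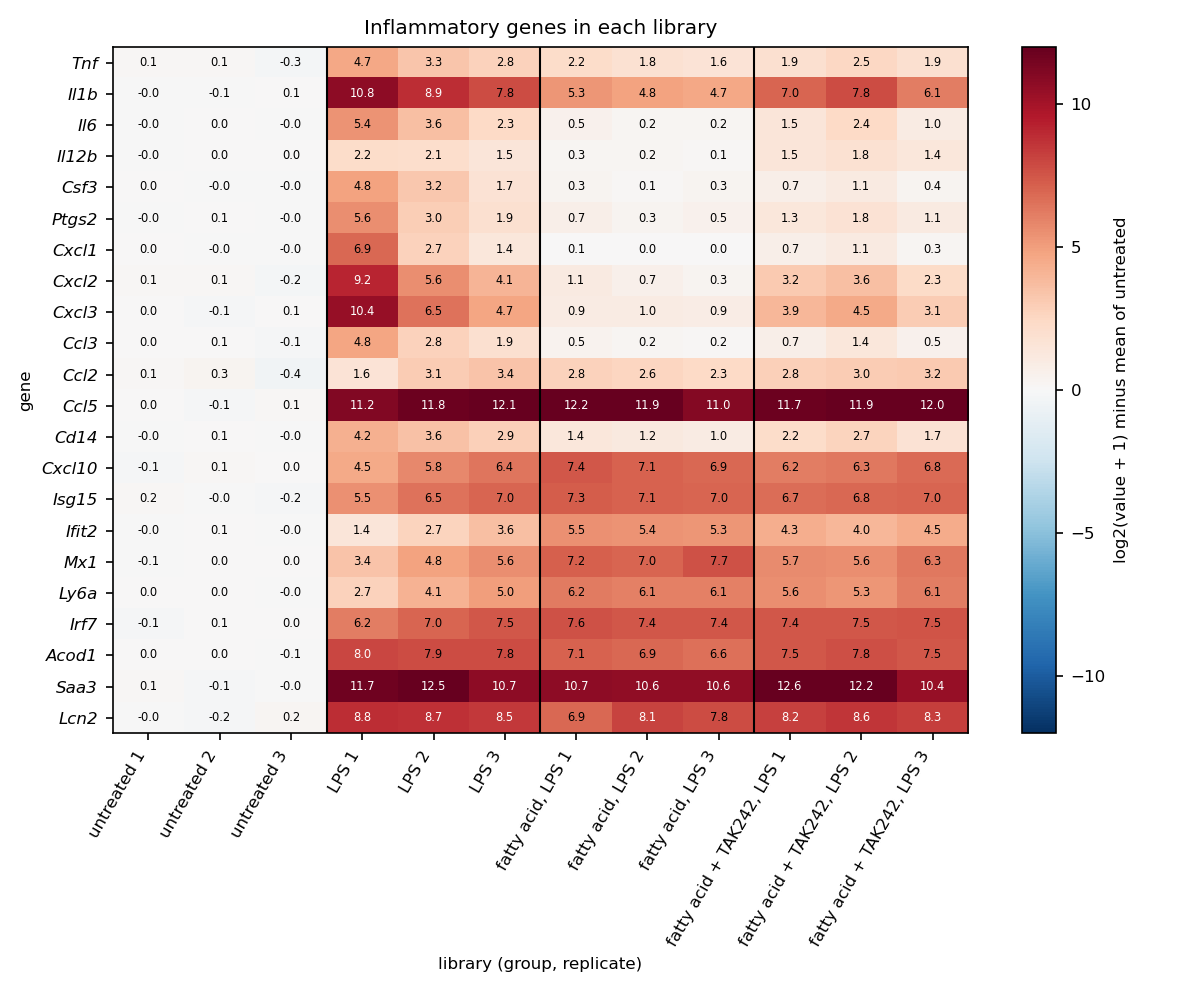
Heat map of 22 genes of the LPS response (rows) in 12 libraries (columns), coloured by log2(value + 1) minus the mean of the untreated libraries. Ccl5, Saa3 and Irf7 are high in every library given LPS, whereas Cxcl2, Cxcl3, Il6 and Ptgs2 are highest in LPS replicate 1 and lower after fatty acid plus TAK242. These last genes are lower still after fatty acid and then LPS without TAK242.

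Genes of antigen presentation by MHC class I rose. All 19 genes of MHC class I and the immunoproteasome rose (median 2.12), as 19 did after LPS alone (median 1.95). H2-T22, a class Ib gene, rose by 3.78 from 15.5 ± 1.35 to 225.6 ± 17.8, and B2m, the shared light chain, rose by 2.12 from a mean of 820.9 to 3580. Tap1, a subunit of the peptide transporter, rose by 2.80, and Psme2, of the proteasome activator, by 1.8. Reads of the class I genes may be split among near-identical copies, so single members are uncertain.

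Of 8 MHC class II genes 7 passed and 4 rose. H2-Ab1 went from 0.621, 0.522 and 0.644 to 18.7, 22.7 and 17.0 (3.67), and Cd74, the invariant chain, rose by 3.27. Of 10 costimulatory and checkpoint ligands 9 passed, 6 rose and 3 fell. Cd274, which encodes PD-L1, rose by 3.63 and Cd40 by 2.62, while Cd83 fell by 2.01 and Cd80 by 1.15.

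Acute phase and antimicrobial genes rose in most cases. Of 20 genes 18 passed, 13 rose and 1 fell (median 4.42, after scaling 15 rose and none fell), against 15 and none after LPS alone (median 4.63). Saa3 (chr7:46711998-46715700), a serum amyloid A gene of macrophages, had values of 8.16, 6.71 and 7.24 in untreated libraries and 51385, 39763 and 11673 after fatty acid, TAK242 and LPS. Replicate 3 was the lowest of the treated libraries, and LPS alone spread as widely, with 27837, 49516 and 14007. The change was 11.75 (SE 0.52, adjusted p = 1.57e-08).

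Lcn2, which encodes an iron-siderophore trap, rose by 8.36 (SE 0.26), from 3.14, 2.70 and 3.79 to 1265, 1622 and 1276. Cfb, the gene of complement factor B, rose by 9.66 (SE 0.16), and C3, the central complement protein gene, by 6.59. Exons of Cfb overlap the gene model Gm20547, which went from a mean of 0.545 to 821.9, so reads of these genes may be split. The formyl peptide receptor genes Fpr1 and Fpr2 rose by 4.73 and 4.77. Hp, the gene of haptoglobin, rose by 7.00, and S100a9 was not called (0.23, adjusted p = 0.737).

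Enzymes of arginine, nitric oxide, itaconate and prostaglandin metabolism rose in 10 of 13 genes and fell in 2 (median 3.47, LPS alone 3.5). Acod1 (chr14:103046977-103056573), whose enzyme makes itaconate, had 0.480, 0.478 and 0.389 in untreated libraries and 254.9, 317.0 and 257.4 after fatty acid, TAK242 and LPS. The groups lay far apart, with a change of 7.57 (SE 0.13, adjusted p = 3.52e-11), beside 7.91 after LPS alone and 6.85 after fatty acid and then LPS. Nos2, the gene of inducible nitric oxide synthase, was listed at 0 in all untreated libraries and had 15.2, 16.0 and 22.2 after treatment. Arg1, the arginase gene, rose by 4.27 and Sod2, of the mitochondrial superoxide dismutase, by 4.27. Ptgs2, which encodes the inducible cyclooxygenase COX-2, was at 1.75, 2.68 and 1.27 against 0.0587, 0.142 and 0.0805. Its change of 1.38 was not called (adjusted p = 0.103), and without LPS replicate 1 in the fit the adjusted p was 0.000840.

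Receptors of resting and alternatively activated macrophages fell. Of 17 scavenger and alternative activation genes 14 passed, 11 fell and 2 rose (median -1.67), as 11 and 2 did after LPS alone (median -1.66). Among all genes tested 43.9% were lower and 14.1% higher. Mrc1 (chr2:14229392-14332057), the mannose receptor gene, went from 252.3, 325.4 and 305.3 to 14.3, 11.8 and 13.8. No library overlapped, and Mrc1 fell by 4.37 (SE 0.21, adjusted p = 2.82e-08). Cd5l, a secreted regulator of macrophage survival, fell by 3.75, Stab1 by 1.77 and Folr2 by 1.93. Msr1, a scavenger receptor gene, rose by 1.86 and Il4ra, a subunit of the interleukin-4 receptor, by 1.54.

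Of 18 macrophage identity and growth factor receptor genes 13 passed, 7 rose and 3 fell (median 0.29), and 10 rose and 3 fell after scaling. Fcgr1, the high-affinity IgG receptor gene, rose by 4.09 and Adgre1, which encodes F4/80, by 2.19. Cd68 fell by 0.99 and the transcription factor gene Maf by 0.70.

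Genes of sterol synthesis fell together. Of 24 genes 23 fell and none rose (median -1.10), where 43.9% of all genes were lower and the median was -0.25. The count was 22 after scaling, and LPS alone gave 22 (median -1.20). Cyp51, which demethylates lanosterol, fell by 2.17 (SE 0.09), from 11.2, 10.6 and 9.50 to 1.79, 1.54 and 1.32. Fdps, which makes farnesyl diphosphate, fell by 2.69, Hmgcs1 by 1.68, Sqle by 1.83 and Insig1 by 1.68. Fdft1 was not called (-0.15, adjusted p = 0.642).

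Before scaling, other lipid genes gave counts near those of all genes tested, of which 14.1% were higher and 43.9% lower. After scaling, 2706 of all 10476 genes were higher and 2797 lower. Of 11 targets of the oxysterol receptor LXR 2 rose and 4 fell (median -0.30, after scaling 3 and 3). Nr1h3, the gene of LXRα, rose by 2.62 and the cholesterol exporter gene Abca1 by 0.92, while the apolipoprotein gene Apoe fell by 1.8, from 2126, 2147 and 2635 to 585.4, 617.2 and 779.5. Of 22 lipid droplet and fatty acid oxidation genes 21 passed, 3 rose and 11 fell. After scaling 5 rose and 11 fell, a larger share lower than among all genes after scaling. The fatty acid-binding protein gene Fabp4 fell by 3.64 and Fabp5 by 2.39. Plin2, the lipid droplet coat gene, was not called (0.32, adjusted p = 0.194).

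Of 24 glycolysis and hypoxia genes 23 passed, 10 rose and 4 fell, and after scaling 14 rose and 2 fell. Pfkfb3, which makes the activator of phosphofructokinase, rose by 3.09, and the hexokinase gene Hk2 by 1.27. Of 23 lysosomal genes 4 rose and 14 fell, where 14.1% of all genes tested were higher and 43.9% lower. After scaling 7 rose and 13 fell, where 2706 of all 10476 genes were higher and 2797 lower. Atp6v0d2, a proton pump subunit gene, fell by 3.68, from 20.7 ± 3.26 to 0.673 ± 0.0584, Lipa, of lysosomal acid lipase, by 2.14 and Ctsd, of cathepsin D, by 0.91.

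Cell division genes fell steeply. All 30 genes of mitosis and chromosome segregation fell (median -3.74), as after LPS alone (30, median -3.85), and the count stayed at 30 whichever of the 6 libraries was left out. The share lower among all genes tested was 43.9%. Ube2c, the ubiquitin-conjugating enzyme gene of the anaphase-promoting complex, had 94.8, 96.6 and 95.3 in untreated libraries and 0.962, 1.10 and 0.499 after fatty acid, TAK242 and LPS. It fell by 5.72 (SE 0.14, adjusted p = 2.70e-10). Ccnb2, a mitotic cyclin gene, went from 67.8, 61.5 and 60.4 to 0.565, 0.526 and 0.243 and fell by 5.48. No treated library came near an untreated one in either gene.

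Stmn1, a microtubule-destabilising protein gene, fell by 4.92, Birc5, which encodes survivin, by 4.93 and Plk1, a mitotic kinase gene, by 4.13. Of 30 genes of DNA replication and nucleotide synthesis 27 fell and none rose (median -1.59, LPS alone 26 and -2.00). Rrm2, a ribonucleotide reductase subunit gene, fell by 3.58, Tyms by 2.53 and the sliding clamp gene Pcna by 1.59. The exceptions that were not called were Tk1, Rfc4 and E2f1, at -1.58, 0.03 and -0.16.

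The promoters of the 2 genes that fell most on the mitosis list are given in the same form.
Ube2c promoter, chr2:164769679-164769928, plus strand: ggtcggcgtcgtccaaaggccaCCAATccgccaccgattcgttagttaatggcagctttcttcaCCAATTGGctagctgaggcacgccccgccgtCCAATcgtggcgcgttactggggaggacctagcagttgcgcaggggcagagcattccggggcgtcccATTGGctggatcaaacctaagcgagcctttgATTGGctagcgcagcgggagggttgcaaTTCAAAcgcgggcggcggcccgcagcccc
Ccnb2 promoter, chr9:70421555-70421804, minus strand: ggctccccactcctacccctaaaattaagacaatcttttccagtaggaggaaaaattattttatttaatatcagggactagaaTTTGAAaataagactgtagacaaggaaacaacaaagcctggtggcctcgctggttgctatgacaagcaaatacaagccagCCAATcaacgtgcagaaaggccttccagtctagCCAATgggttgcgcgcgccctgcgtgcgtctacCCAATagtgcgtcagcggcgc
In Ube2c the capitals mark CCAAT boxes on both strands and a TTTGAA match read on the opposite strand, and in Ccnb2 a TTTGAA match and several CCAAT boxes. The CCAAT box was in 20 of 24 promoters found for the mitosis list (83.3%) and 34.5% of all promoters. TTTGAA was in 9 of 24 (37.5%) and 16.3% of all, and in 13 of 34 promoters of the interferon-stimulated genes (38.2%), which rose. The CCAAT box was also in 15 of 17 promoters of the sterol synthesis list (88.2%), which fell, and in 12 of 16 of the MHC class I list (75%) and 4 of 5 of the MHC class II list (80%), whose called members rose. These motifs were thus found on lists that rose and on lists that fell. The plot of list members sets the medians of the 3 responses beside each other.

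**Figure D3:**
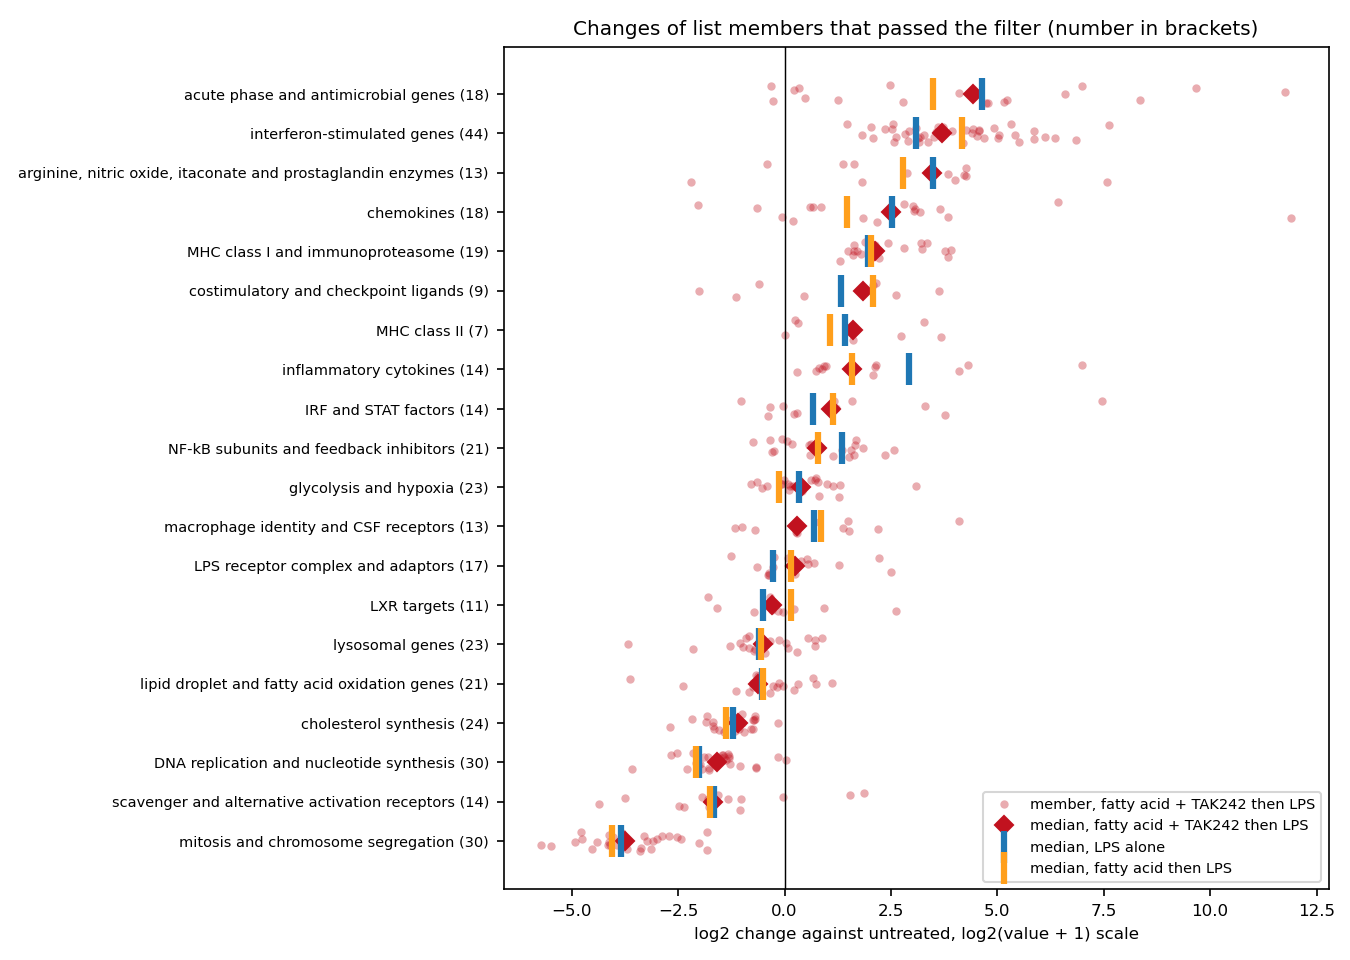
Log2 change against untreated cells of the members of 20 lists that passed the filter, after fatty acid plus TAK242 and then LPS (points; diamond, median). Ticks give the median after LPS alone (blue) and after fatty acid and then LPS (orange). Medians run from 4.42 for acute phase genes to -3.74 for mitosis genes, and the blue tick lies farthest to the right of the diamond for inflammatory cytokines (2.92 beside 1.58).

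Whether the response differed from that to LPS alone was tested directly, since the untreated libraries cancel in that difference. Of 10476 genes 617 were called (5.89%), 424 higher (4.05%) and 193 lower (1.84%) after fatty acid, TAK242 and LPS, 33 (0.315%) and 29 (0.277%) of them by at least 2-fold. After scaling 1011 were called, 453 higher and 558 lower, so the share that was higher moved from 68.7% to 44.8%. These calls were fragile. Without LPS replicates 1, 2 and 3 the count was 29, 29 and 1784, and without replicates 1, 2 and 3 of the treated group 12, 268 and 1. A single call held each time, and none of the 18 genes named here that were called did. Without LPS replicate 3 all 18 were called, without LPS replicate 2 only Arg1, without treated replicate 2 there were 7, and without LPS replicate 1 or treated replicate 1 or 3 there were none.

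Within that limit, a minority of the members of the inflammatory lists were called against LPS alone. Over all 10476 genes tested 4.05% were higher and 1.84% lower in this comparison, and after scaling 453 genes were higher and 558 lower. Of 21 genes of the NF-kB list 2 were lower and 1 higher (4 and 1 after scaling), and of 18 acute phase genes 1 was lower and 1 higher (3 and 1 after scaling). Of 14 cytokine genes 3 were lower and 1 higher (6 and 1 after scaling), of 18 chemokine genes 3 were lower and none higher (4 and none after scaling), and of 13 genes of arginine, nitric oxide, itaconate and prostaglandin enzymes 5 were lower and none higher (6 and none). Cd14 was at 39.3 ± 12.9 against 105.0 ± 48.7 (difference -1.34, adjusted p = 0.0379) and Tnf at 16.4 ± 4.28 against 55.8 ± 39.7 (-1.51, adjusted p = 0.0484). Ccl3 differed by -2.30 (adjusted p = 0.0398), with all 3 libraries below all 3 of LPS alone, and Csf3 differed by -2.53 (adjusted p = 0.0360). The rule that named Ccl3 and Csf3 here required a call and groups that did not overlap, so neither adds support. Smaller differences were called for Il10 (-0.75), Nfkbiz (-0.69), Arg1 (-0.62) and Sod2 (-0.55). Without LPS replicate 1, the library with the highest Tnf, Cd14 and Ccl3, the differences were -0.98 for Tnf, -1.0 for Cd14, -1.51 for Ccl3 and -1.74 for Csf3, with adjusted p of 0.0685, 0.0771, 0.0559 and 0.0583. Means after fatty acid and then LPS without TAK242 were 18.2 for Cd14, 14.1 for Tnf, 64.5 for Ccl3 and 0.194 for Csf3, also below LPS alone. Il10, with a mean of 10.2 there, was near its 10.3 after LPS alone.

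The differences of Cxcl1, Cxcl2 and Cxcl3 given above were not called, nor were those of Il1b (-2.17, adjusted p = 0.0598), Il6 (-2.14, adjusted p = 0.0582) and Ptgs2 (-2.12, adjusted p = 0.0777). LPS replicate 1 was the highest of all 12 libraries in each of these 6 genes. For Il6 the groups overlapped, since treated replicate 2 at 4.36 lay above LPS replicate 3 at 4.11. In the other genes the 3 libraries with TAK242 lay below the 3 of LPS alone, for Il1b by a narrow margin of 260.4 to 262.1. Without LPS replicate 1 the difference was -1.38 for Il1b, -1.34 for Il6 and -1.09 for Ptgs2. After fatty acid and then LPS without TAK242, means were 34.7 for Il1b, 0.277 for Il6 and 0.562 for Ptgs2, also below LPS alone.

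The interferon-inducible genes Ifit2 and Ly6a were higher than after LPS alone. Ifit2, of the antiviral IFIT family, had 23, 17.5 and 25.5 after fatty acid, TAK242 and LPS, 2.23, 6.62 and 13.3 after LPS alone and 53.6, 48.0 and 46.9 after fatty acid and then LPS. The groups did not overlap, and the difference from LPS alone was 1.69 (adjusted p = 0.0408; 1.12 and 0.0584 without LPS replicate 1). Ly6a, an interferon-inducible surface protein gene also known as Sca-1, was higher by 1.72 (adjusted p = 0.0470; 1.11 and 0.0620 without that library). Its values were 72, 59.9 and 106.3 with TAK242 and 114.7, 101.4 and 103.3 after fatty acid and then LPS. Only Ifit2 was called among the 44 interferon-stimulated genes, whose differences from LPS alone had a median of 0.56. That median includes LPS replicate 1, where the median log2 level of these genes was 4.02, beside 4.75 and 5.08 in LPS replicates 2 and 3. For Ccl5 the difference was 0.22, with a 95% interval from -0.43 to 0.87, and for Saa3 0.10, from -1.05 to 1.26.

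Among genes that LPS lowered, Mrc1 was less low than after LPS alone, at 14.3, 11.8 and 13.8 against 3.82, 6.14 and 8.39 (difference 1.05, adjusted p = 0.0283; 0.80 and 0.0583 without LPS replicate 1). Cd5l differed by 1.01 (adjusted p = 0.0293; 0.79 and 0.0615 without that library) and Tlr4 itself by 0.35 (adjusted p = 0.0351; 0.35 and 0.0682). Fatty acid and then LPS without TAK242 also left these genes above LPS alone. Values there were 13.1, 17.3 and 15.9 for Mrc1, 24.3, 24.5 and 25.3 for Cd5l, and 2.7, 2.74 and 2.98 for Tlr4. None of the 30 mitosis genes and none of the 24 sterol synthesis genes was called against LPS alone, with median differences of 0.16 and -0.05; after scaling 1 sterol synthesis gene was higher. The plot of differences sets these genes beside each other.

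**Figure D4:**
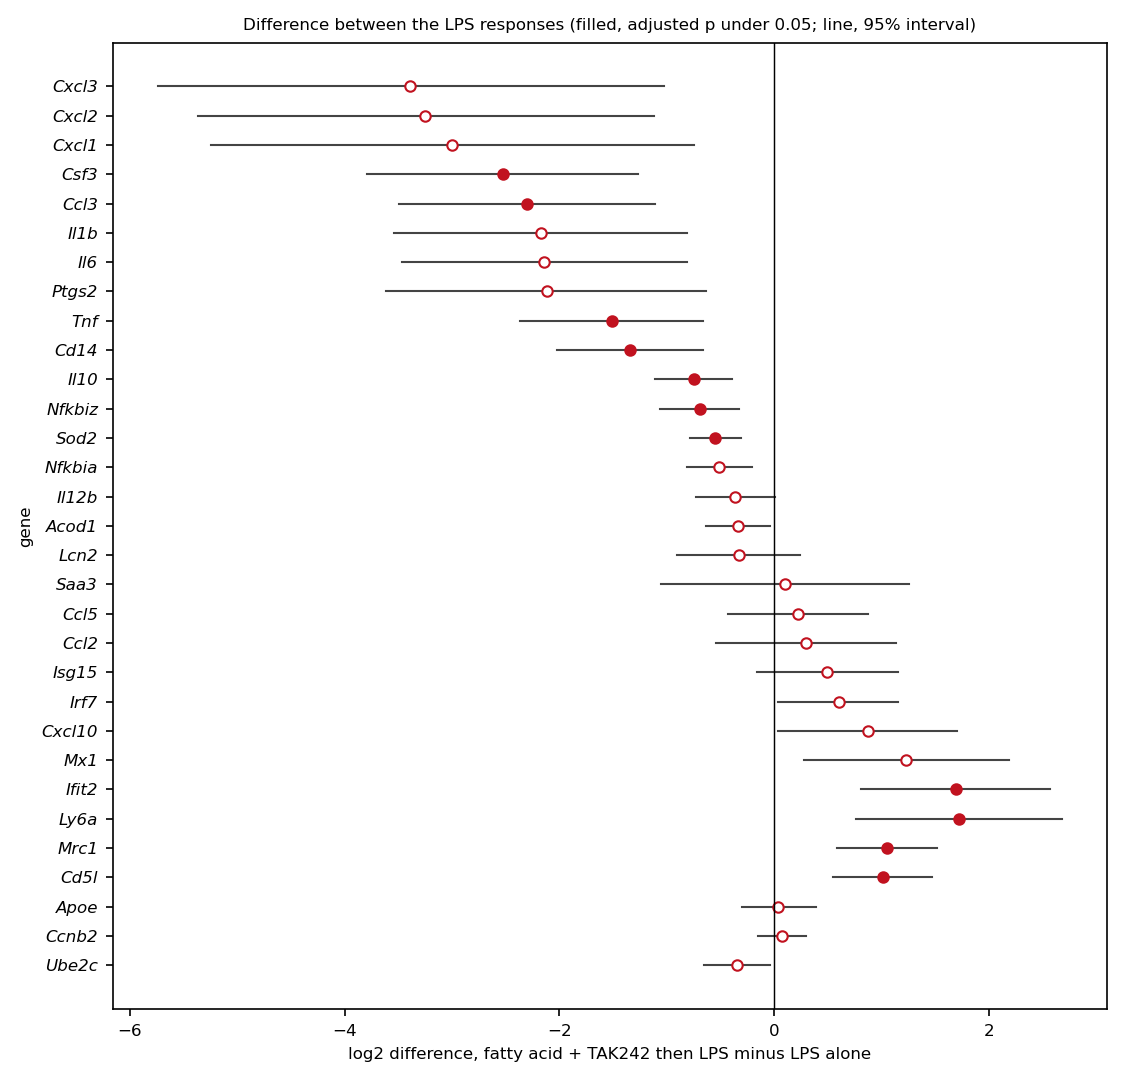
Log2 difference between fatty acid plus TAK242 then LPS and LPS alone for 31 genes, with the unadjusted 95% interval of each gene; filled points had an adjusted p under 0.05. Neutrophil chemokines and cytokines lie to the left, from -3.39 for Cxcl3, and interferon-stimulated genes to the right, up to 1.69 for Ifit2 and 1.72 for Ly6a.

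Against fatty acid and then LPS, the comparison that differs only in TAK242, 491 of 10476 genes were called (4.69%), 315 higher (3.01%) and 176 lower (1.68%). Without replicates 1, 2 and 3 of fatty acid and then LPS the count was 305, 91 and 66, and without replicates 1, 2 and 3 with TAK242 it was 114, 63 and 297. Across these, 52 calls held every time, among them 8 of the 23 genes named here that were called. The 8 were Lbp, H2-Ab1, Apoe, Il12b, Cd5l, Pf4, Mmp12 and Col18a1. Il12b was at 1.79, 2.53 and 1.64 with TAK242 and 0.211, 0.179 and 0.114 without it, a difference of 1.34 (adjusted p = 0.00338). H2-Ab1 was higher by 1.15 with TAK242 (adjusted p = 0.00693) and Apoe lower by 1.43 (adjusted p = 0.00165). The groups did not overlap in any of these 3 genes.

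Pf4, a platelet and macrophage chemokine gene, was at 866.4, 983.6 and 994.9 with TAK242 and 336.5, 273.7 and 252.5 without it (1.73, adjusted p = 0.00124), and untreated cells had 1106, 816.1 and 1063. Mmp12, macrophage elastase, was at 78.8, 108.5 and 70.2 with TAK242 and 17.3, 16.0 and 10.9 without it (2.46, adjusted p = 0.00693). Against untreated cells Pf4 overlapped, Mmp12 lay below all 3 libraries, and neither was called in the fit over 12 libraries (adjusted p = 0.791 and 0.214). Cd5l was lower with TAK242, at 4.57, 3.99 and 6.64 against 24.3, 24.5 and 25.3 (-2.11, adjusted p = 0.00098), and Lbp by 1.16 on the same scale.

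Acod1 and Hp were higher with TAK242 by 0.72 and 0.96 (adjusted p = 0.0197 and 0.0117), and these calls did not hold with every library left out (highest adjusted p 0.0925 and 0.0584). The same was so for the cell cycle genes Ube2c (0.75, highest adjusted p 0.0937), Stmn1 (0.87, 0.158) and Rrm2 (1.19, 0.137). The cytokine genes Tnf, Il6 and Il1b differed by 0.20, 1.28 and 2.06 from fatty acid and then LPS, and none was called (adjusted p = 0.799, 0.231 and 0.0840). All 3 libraries with TAK242 were above all 3 without it for Il1b and Il6, and the groups overlapped for Tnf.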

How the data were processed

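RNA-seq was deposited by the authors as a table of 12 libraries, 3 per group. Tools named in the submitters' processing notes are HISAT2 2.0.5, Trim Galore 0.4.1, FastQC 0.11.5 and CASAVA 1.8.2, with genome builds mm9 and mm10 listed and no roles stated; the quantification step and the unit of the deposited values are not given in the sources used here. Coordinates in the table are those of GRCm38. Sequencing depth is therefore unknown, and no counting interval is given. Of 50645 genes read, 50336 had a symbol in a reference table; 36 displaced entries of 17 gene IDs were left out.

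Genes at 1 or more in at least 3 of 12 libraries were kept (10476), and log2(value + 1) was fitted over all 12 libraries with limma 3.58.1 and a mean-variance trend in R 4.3.3, with p-values adjusted by the Benjamini-Hochberg method. On simulated data 82% of 2-fold and 98% of 4-fold changes were recovered for the comparison with untreated cells over 10476 genes, with 6 false calls among 186. Changes were planted in 200 genes above a minimum mean level, in a single run with the same spread in every group. All other genes were given equal group means. These rates therefore do not cover genes with low values or a shift over all genes, such as the median of -0.25 against untreated cells. Whether a replicate was a separate animal or a separate culture is not in the labels, so p-values measure the spread between these samples, which may be technical. Replicates of a group differed by a median of 0.110 to 0.242 on the log2 scale, and no library was a repeat of another.

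Genes were named by a rule. It took the 12 genes that rose most and the 12 that fell most among those called, given groups that did not overlap and a higher mean of 10 or more, and passed over gene models. Added were the 3 members of each list with the smallest adjusted p and a set of focal genes. The 4 largest differences each way from LPS alone and from fatty acid then LPS were also named, under the same conditions as the rises and falls. Other members of the lists are quoted as examples chosen after their values were seen. The comparison and the lists were chosen with earlier results of these data known. Alternatives were no filter, a minimum of 5, a pseudocount of 0.1, only the 6 libraries compared, median-ratio scaling, no trend, each library left out and a replicate block; leaving out LPS replicate 1 for the contrast with untreated cells was added after seeing the data. Promoters came from a RefSeq table (GRCm38.p6). Python 3.11.15, pandas 2.3.3 and matplotlib 3.10.9 were used. Some genes of these lists are not reported here by name.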

Additional observations from a re-analysis of the deposited data

How the results depend on the processing

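Against untreated cells the count of called genes ran from 4175 (minimum of 5) to 7425 (no filter) beside 6082, from 5425 to 5783 with 1 of the 6 compared libraries left out, and was 6498 without LPS replicate 1. For LPS alone it was 4303 with the minimum of 5. The difference from LPS alone rested on the settings: 88 genes with no minimum value, 2 when the fit held just the 6 libraries, 1011 after median-ratio scaling and 1 to 1784 with a library left out. The difference from fatty acid and then LPS gave 276, 1110, 770 and 63 to 305 genes under the same settings. The cause of these moves was not tested. Of 104 named genes past the filter, 94 were called against untreated cells and 91 of them with each of 6 libraries left out. The exceptions were Il6, Cxcl2 and Rin2. Many of these genes were named for a call or a small adjusted p in this comparison, so these counts are not independent support. Over all 10476 genes tested, 6082 were called and 4956 of these held. Some uncalled differences from LPS alone changed sign with a library left out, such as that of Ccl5 (0.22, and -0.04 without LPS replicate 1). Against untreated cells, no named gene that was called changed direction under any setting run. Among all 6082 genes called there, 187 changed sign after median-ratio scaling. Csf3 and Ptgs2 were called with a pseudocount of 0.1 (2.77 and 3.33), and Cxcl1, Mmp12, Csf3, Ccl3 and Ptgs2 with only the 6 libraries. In turn, 3 named calls were lost with no filter and 1 with only the 6 libraries. Lpl was called without untreated replicate 1 (0.91, adjusted p = 0.000123).

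Deviations of same-numbered libraries from their group means correlated at -0.01, -0.00 and 0.01 between the untreated group and fatty acid plus TAK242 then LPS. They correlated at 0.04, -0.01 and 0.20 between the latter and LPS alone, and at -0.08, -0.03 and -0.02 between it and fatty acid then LPS. Differently numbered libraries gave -0.19 to 0.15. The numbers were therefore not taken to pair samples in these 3 comparisons. With the replicate block 6012 genes were called against untreated cells, 579 against LPS alone and 373 against fatty acid and then LPS, and no call of a named gene against untreated cells changed.

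The 3 libraries per group and an unnamed unit limit these values, and the effects of fatty acid, TAK242 and LPS cannot be told apart in the contrast with untreated cells.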
